A study of Mus musculus with 35 samples.

Results

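The 6 genes described here encode cytokines that CD8 T cells can make: Ifng, Tnf, Il10, Csf1, Ltb and Tgfb1. They were chosen by symbol from the 22865 genes of the count table, and all 6 have a row there. Their RNA was measured by bulk 3′-end sequencing in sorted CD8 T cells. The cells came from the spleen and the liver of 13 months old mice of the strain C57BL/6, which had been kept on a diet labelled ND or on one labelled CD-HFD. CXCR6 is a chemokine receptor, and the liver cells form a CXCR6pos and a CXCR6neg fraction, while the spleen cells were CX3CR1neg. From ND mice there were 6 libraries of liver CXCR6pos, 4 of liver CXCR6neg and 5 of spleen cells, and from CD-HFD mice 5, 6 and 6. No other allele, agent or treatment is named for any group, and the labels do not say whether the replicates came from separate mice, so each p-value measures only the spread between these samples.

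Cytokines are secreted or membrane-bound proteins by which lymphocytes act on neighbouring cells. Interferon gamma and TNF are the classical effector cytokines of CD8 T cells: the first acts through a JAK-coupled receptor, the second largely through NF-kB. Interleukin 10 and TGF-beta 1 restrain immune responses, CSF1 is the growth and survival factor of macrophages, and lymphotoxin beta organises lymphoid tissue. Liver CXCR6-bearing CD8 T cells are known as a largely tissue-resident population. RNA of several cytokine genes is short-lived, since AU-rich elements in the 3′ untranslated region (UTR) are bound by decay factors such as the protein encoded by Zfp36.

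The AU-rich stretches of Tnf and Ifng are shown first because both genes carry them and both had lower RNA under CD-HFD in the liver CXCR6pos fraction. The sequences are written as DNA, 5′ to 3′, from GENCODE M21 transcripts on GRCm38, and capitals mark every ATTTA pentamer in windows that start at UTR base 437 in Tnf and base 69 in Ifng.
Tnf: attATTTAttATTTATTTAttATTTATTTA
Ifng: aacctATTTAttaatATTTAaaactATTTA
The Tnf window held 5 ATTTA pentamers and the Ifng window 3, whereas 2.38% of 20511 genes with a 3′ UTR had a 30-base window with at least 3 of them. The nonamer TTATTTATT occurred 5 times in the 764-base Tnf UTR and not in the other members, against 7.2% of genes with at least 1 copy. The Il10 UTR of 706 bases held 6 scattered pentamers, that of Ifng 6 in 631 bases, that of Csf1 4 in 2111 bases and that of Tgfb1 1 in 135 bases, while the 156-base Ltb UTR held none. UTR lengths differ between genes, with a median of 863 bases, and a match describes the letters only.

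The start regions of 4 members are shown beside them, since Tnf and Ifng fell under CD-HFD in the same cells in which Csf1 rose, and Ltb is the neighbour of Tnf whose level differed little. Each run covers 250 bases before to 50 bases after the annotated start, from RefSeq on GRCm38.p6, where 5 of the 6 members had an entry and Il10 had none. Capitals mark TATAAA in Ifng and Tnf, the GGAAAA core, which lies on the other strand and so reads TTTTCC, in Tnf, and a match to the NF-kB consensus in Csf1 and Ltb.
Tnf, chr17:35201958-35202257, minus strand: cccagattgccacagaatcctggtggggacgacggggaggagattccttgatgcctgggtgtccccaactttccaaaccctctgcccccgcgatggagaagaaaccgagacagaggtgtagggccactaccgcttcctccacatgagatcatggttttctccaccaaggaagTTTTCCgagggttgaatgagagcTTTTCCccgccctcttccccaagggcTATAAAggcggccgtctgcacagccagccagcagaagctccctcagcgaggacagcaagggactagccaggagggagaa
Ifng, chr10:118440796-118441095, plus strand: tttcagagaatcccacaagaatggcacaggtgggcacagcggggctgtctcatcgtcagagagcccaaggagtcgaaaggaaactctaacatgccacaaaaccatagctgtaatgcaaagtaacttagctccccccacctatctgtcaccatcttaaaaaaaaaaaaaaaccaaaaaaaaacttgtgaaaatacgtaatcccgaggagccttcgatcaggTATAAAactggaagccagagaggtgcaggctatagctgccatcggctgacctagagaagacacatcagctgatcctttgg
Csf1, chr3:107760420-107760719, minus strand: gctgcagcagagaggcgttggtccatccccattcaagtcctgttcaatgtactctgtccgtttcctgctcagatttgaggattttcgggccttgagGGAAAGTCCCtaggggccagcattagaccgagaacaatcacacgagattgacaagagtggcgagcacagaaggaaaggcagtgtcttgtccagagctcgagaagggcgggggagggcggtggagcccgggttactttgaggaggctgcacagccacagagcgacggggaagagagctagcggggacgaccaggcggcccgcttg
Ltb, chr17:35194257-35194556, plus strand: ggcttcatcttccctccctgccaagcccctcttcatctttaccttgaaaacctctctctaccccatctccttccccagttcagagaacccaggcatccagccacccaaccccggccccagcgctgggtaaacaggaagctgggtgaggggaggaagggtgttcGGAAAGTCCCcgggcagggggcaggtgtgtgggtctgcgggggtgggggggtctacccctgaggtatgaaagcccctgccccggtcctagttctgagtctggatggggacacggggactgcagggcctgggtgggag
The 6 motifs searched on both strands were TATAAA, found in 13.62% of 32851 promoters of the same length, TGANTCA (AP-1, in 7.81%), TGACGTCA (CRE, in 1.79%), the NF-kB consensus (in 4.51%), GGAAAA (the NFAT core, in 23.36%) and GGTGTGA (T-box, in 3.98%). TATAAA lay at bases -30 to -25 from the start of Ifng and -29 to -24 from that of Tnf, and the GGAAAA cores of Tnf at -78 to -73 and -55 to -50. The NF-kB match lay at -154 to -145 in Csf1 and -87 to -78 in Ltb. The Tgfb1 start region matched none of these letters and had a GC content of 77.0%, against a median of 52.7% over the promoters.

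On GRCm38 the whole genes span chr10:118441046-118445892 (Ifng, ENSMUSG00000055170, plus strand), chr17:35199381-35202007 (Tnf, ENSMUSG00000024401, minus strand), chr1:131019845-131024974 (Il10, ENSMUSG00000016529, plus strand), chr3:107741048-107760469 (Csf1, ENSMUSG00000014599, minus strand), chr17:35194439-35196320 (Ltb, ENSMUSG00000024399, plus strand) and chr7:25687002-25705077 (Tgfb1, ENSMUSG00000002603, plus strand). Ltb and Tnf are neighbours in the TNF locus with 3060 bases between them, and Lta lies 1157 bases on the far side of Tnf. Ifng overlaps the gene model Gm49751 and Ltb the miRNA gene Mir6973a, each on the same strand, so that their counts cannot be told apart with certainty.

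Total counts per library ran from 15633 to 978896, and levels are given as TMM-scaled CPM, the counts relative to library size. Each transcript gives a tag at its 3′ end, so no length scaling was needed for setting levels of different genes side by side. Over all libraries Ltb had 4794 counts, Ifng 1196, Tnf 708, Il10 200, Tgfb1 125 and Csf1 123. The T cell markers were present in every group, with none of the 6 at 0. Their summed level of 8323 to 9120 CPM in CD-HFD CXCR6pos was above that in every ND CXCR6pos (4665 to 7847) and CD-HFD CXCR6neg library (5829 to 6224). CXCR6 RNA separated the liver fractions under CD-HFD (543 to 823 CPM against 50.1 to 118), but not under ND, where the range of 189.9 to 768 CPM in CXCR6pos overlapped that of 37.9 to 426 in CXCR6neg; the libraries farthest against their gate were CXCR6pos replicate 6 and CXCR6neg replicate 4. ND CXCR6pos replicate 6 also had 852 CPM of plasmacytoid dendritic cell markers and 1472 of B cell markers, against 93.3 to 176 and 236 to 653 in the other libraries labelled ND CXCR6pos and 482 to 965 and 836 to 1686 in ND CXCR6neg. Whether its label was exchanged was not tested, and values without both libraries stand beside the comparisons where they change a call. The pair of libraries of lowest depth were ND CXCR6pos replicate 1, in which 1 count is worth 46.7 CPM, and CD-HFD CXCR6pos replicate 5, with 57168 counts.

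**Figure D1:**
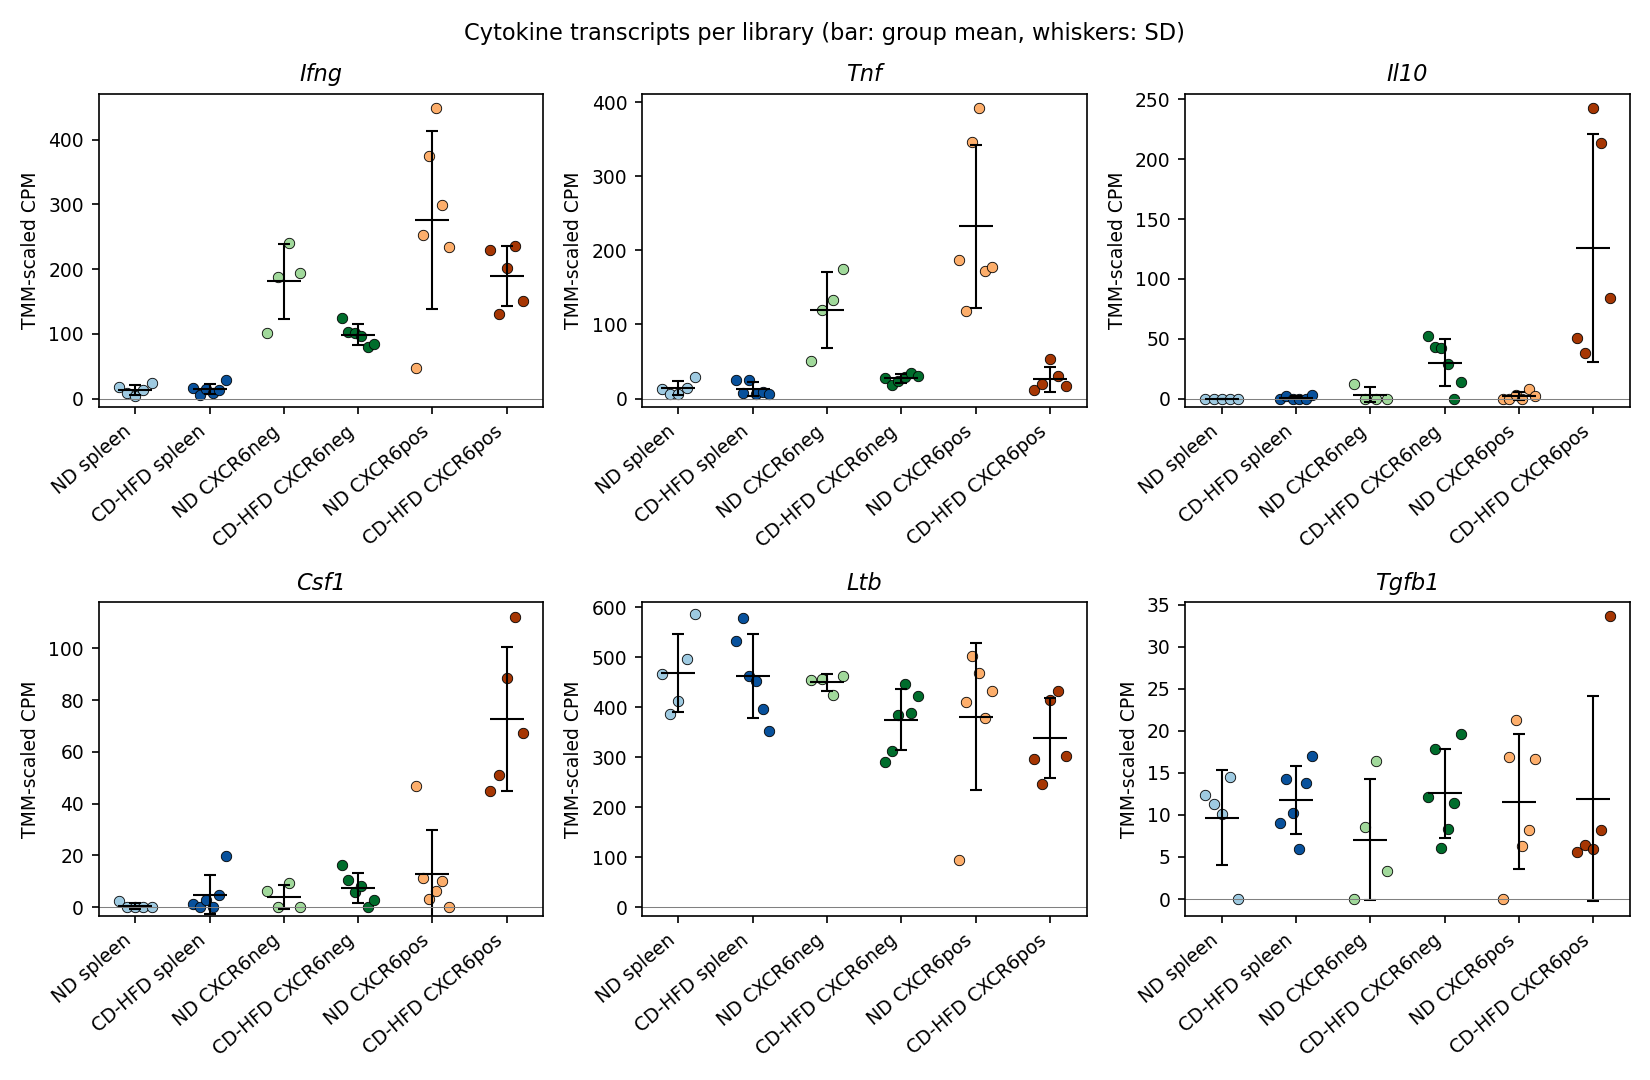
Level of each cytokine gene in every library, in TMM-scaled CPM, by group; points are libraries, horizontal bars are group means and whiskers are the SD. The ND and CD-HFD libraries of the CXCR6pos fraction do not overlap for Tnf and Il10, while the 6 groups overlap for Ltb and Tgfb1.

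Ifng, the gene for interferon gamma, was high in both liver fractions and low in the spleen under either diet. In ND CXCR6pos cells replicates 1 to 6 had 46.7, 253, 374, 449, 299 and 235 CPM (276 ± 138, SD, n = 6), and the lowest value rested on 1 count. In CD-HFD CXCR6pos cells replicates 1 to 5 had 229, 131, 201, 235 and 151 CPM (189.6 ± 46.6, SD, n = 5). The groups overlapped: 4 of the 6 ND libraries were above all CD-HFD libraries, replicate 6 was level with the highest of them, and the lowest ND value was the single count.

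The CXCR6neg libraries carried less Ifng. ND replicates 2 to 5 had 101, 188, 241 and 194 CPM (181 ± 58.4, SD, n = 4), and CD-HFD replicates 1 to 6 had 125, 103, 102, 96.0, 80.2 and 84.1 CPM (98.5 ± 16.1, SD, n = 6). All CD-HFD CXCR6neg libraries were below all CD-HFD CXCR6pos libraries. The spleen libraries lay between 3.39 and 28.4 CPM, with 13.1 ± 7.90 (SD, n = 5) under ND and 14.8 ± 7.76 (SD, n = 6) under CD-HFD.

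Tnf, the gene for tumour necrosis factor, had its highest level in ND liver cells and was far lower in the liver of CD-HFD mice. ND CXCR6pos replicates 1 to 6 had 187, 118, 347, 392, 172 and 178 CPM (232 ± 110, SD, n = 6). CD-HFD CXCR6pos replicates 1 to 5 had 11.2, 19.2, 53.2, 30.1 and 16.8 CPM (26.1 ± 16.6, SD, n = 5, 29 counts in all). The highest CD-HFD library was below the lowest ND library.

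The same order of diets held for Tnf in the CXCR6neg fraction. ND replicates 2 to 5 had 50.6, 119.7, 133 and 174 CPM (119.5 ± 51.5, SD, n = 4), and CD-HFD replicates 1 to 6 had 28.3, 17.8, 24.0, 29.2, 34.4 and 30.8 CPM (27.4 ± 5.79, SD, n = 6). These groups did not overlap either. Spleen libraries had 5.68 to 29.6 CPM, with group means of 13.9 ± 9.42 (SD, n = 5) under ND and 12.9 ± 9.27 (SD, n = 6) under CD-HFD, so that the CD-HFD liver libraries lay partly within the range of the spleen.

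Il10, the gene for interleukin 10, was found mostly in CD-HFD liver libraries, which held all but 11 of its 200 counts. CD-HFD CXCR6pos replicates 1 to 5 had 50.4, 38.4, 243, 213 and 84.0 CPM (126 ± 95.3, SD, n = 5, 145 counts in all). ND CXCR6pos replicates 1 to 6 had 0, 0, 3.04, 0, 8.20 and 2.37 CPM (2.27 ± 3.20, SD, n = 6), from 6 counts in all. Every CD-HFD library of this fraction was above every ND library, and the CD-HFD libraries spread widely among themselves.

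In the CXCR6neg fraction Il10 was lower and present in 5 of 6 CD-HFD libraries. CD-HFD replicates 1 to 6 had 52.5, 42.7, 42.1, 29.2, 0 and 14.0 CPM (30.1 ± 19.8, SD, n = 6), and the library at 0 had a depth at which 3 counts correspond to 34.4 CPM. ND replicate 2 had 12.6 CPM from 2 counts and replicates 3 to 5 had none (3.16 ± 6.32, SD, n = 4). In the spleen Il10 had no count in the 5 ND libraries and 3 counts in 2 of the 6 CD-HFD libraries.

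Csf1, the macrophage growth factor gene, was highest in CD-HFD CXCR6pos cells. Replicates 1 to 5 of that group had 44.8, 51.2, 88.7, 112 and 67.2 CPM (72.8 ± 27.8, SD, n = 5, 84 counts). ND CXCR6pos replicates 1 to 6 had 46.7, 11.2, 3.04, 6.32, 10.3 and 0 CPM (12.9 ± 17.1, SD, n = 6, 11 counts), and the 1 ND value inside the CD-HFD range was a single count in the shallowest library. The other 5 ND libraries were all below the CD-HFD libraries.

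Csf1 was low elsewhere. CD-HFD CXCR6neg replicates 1 to 6 had 16.1, 10.7, 6.01, 8.35, 0 and 2.80 CPM (7.33 ± 5.76, SD, n = 6), and ND CXCR6neg cells had 3.92 ± 4.70 CPM (SD, n = 4) from 5 counts. Spleen cells had 1 count over the 5 ND libraries and 11 counts over the 6 CD-HFD libraries, 7 of them in replicate 6.

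Ltb, whose product forms the membrane-bound lymphotoxin heterotrimer with lymphotoxin alpha, was the most abundant member in every group. Its group means were 381 ± 147 CPM in ND CXCR6pos (SD, n = 6), 338 ± 80.6 in CD-HFD CXCR6pos (SD, n = 5), 449.7 ± 17.6 in ND CXCR6neg (SD, n = 4), 375 ± 61.1 in CD-HFD CXCR6neg (SD, n = 6), 469 ± 78.2 in ND spleen (SD, n = 5) and 462 ± 83.8 in CD-HFD spleen (SD, n = 6). Apart from ND CXCR6pos replicate 1, at 93.3 CPM from 2 counts, the libraries lay between 246 and 586 CPM, and the neighbours in this order overlapped. Tgfb1, the gene for latent TGF-beta 1, was low, with group means from 7.07 ± 7.14 CPM in ND CXCR6neg (SD, n = 4) to 12.6 ± 5.28 in CD-HFD CXCR6neg (SD, n = 6) and single libraries from 0 to 33.6 CPM.

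Ordered by level, the groups ran ND CXCR6pos, CD-HFD CXCR6pos, ND CXCR6neg, CD-HFD CXCR6neg and then both spleen groups for Ifng. For Tnf the order was ND CXCR6pos and ND CXCR6neg, then CD-HFD CXCR6neg and CD-HFD CXCR6pos, then the spleen. For Il10 and Csf1, CD-HFD CXCR6pos came first. Of the neighbours in these orders that were compared, the pairs that differed past the threshold of the tests given next were ND against CD-HFD CXCR6pos and CD-HFD CXCR6neg against the CD-HFD spleen for Ifng, and ND against CD-HFD CXCR6neg for Tnf. For Il10 they were CD-HFD CXCR6pos against CD-HFD CXCR6neg, and for Csf1 CD-HFD against ND CXCR6pos. The spleen groups did not differ from each other beyond their spread for any member.

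The first comparison addressed the effect of diet within CXCR6pos liver cells. Il10 and Csf1 rose under CD-HFD and Tnf and Ifng fell. Il10 was 34.8-fold higher (log2 fold change 5.12 ± 0.66, SE, adjusted p = 1.22e-06, edgeR) and higher in 5 of 5 CD-HFD libraries than in any ND library. Csf1 was 11.3-fold higher (3.49 ± 0.52, SE, adjusted p = 7.3e-08). Tnf was 8.97-fold lower (-3.16 ± 0.40, SE, adjusted p = 1.2e-06), and Ifng 1.63-fold lower (-0.70 ± 0.20, SE, adjusted p = 0.016).

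Of the 5 members tested 4 passed, against 11.3% of the 6174 genes tested, and 4 passed without the ND libraries farthest against their gate. The libraries of the diets did not overlap for Tnf, which 1.85% of genes tested shared as lower genes, or for Il10, which 2.67% shared as higher genes. Ltb had a log2 fold change of -0.32 ± 0.15 (SE) and an adjusted p of 0.193. Tgfb1 had too few counts for the model, and its exact two-sided permutation test gave p = 0.939. The Ifng call held under 19 of 23 alternatives. Those that lost it included the fit without CD-HFD CXCR6pos replicate 2 (adjusted p = 0.0835), DESeq2 (adjusted p = 0.0527) and the duplicated library kept in the liver (adjusted p = 0.245). Ifng passed without each other library in turn.

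Markers of T cells and of natural killer (NK) cells, which also make interferon gamma and TNF, moved with diet in the same CXCR6pos cells. In this comparison 11.3% of all genes passed. Of the 6 T cell markers 3 were higher and 0 lower under CD-HFD. Of the 6 NK cell markers 4 were tested: Tyrobp (73.2 to 27.2 CPM), Klrb1c (38.2 to 13.1) and Fcer1g (54.6 to 21.0) fell, and Eomes, which CD8 T cells also express, rose. The whole NK list summed to 160 to 451 CPM in ND and 163 to 286 in CD-HFD libraries, and Ncr1, a defining NK gene, had 0 counts in all liver libraries. The part of these cells in the changes of the members was not tested.

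**Figure D2:**
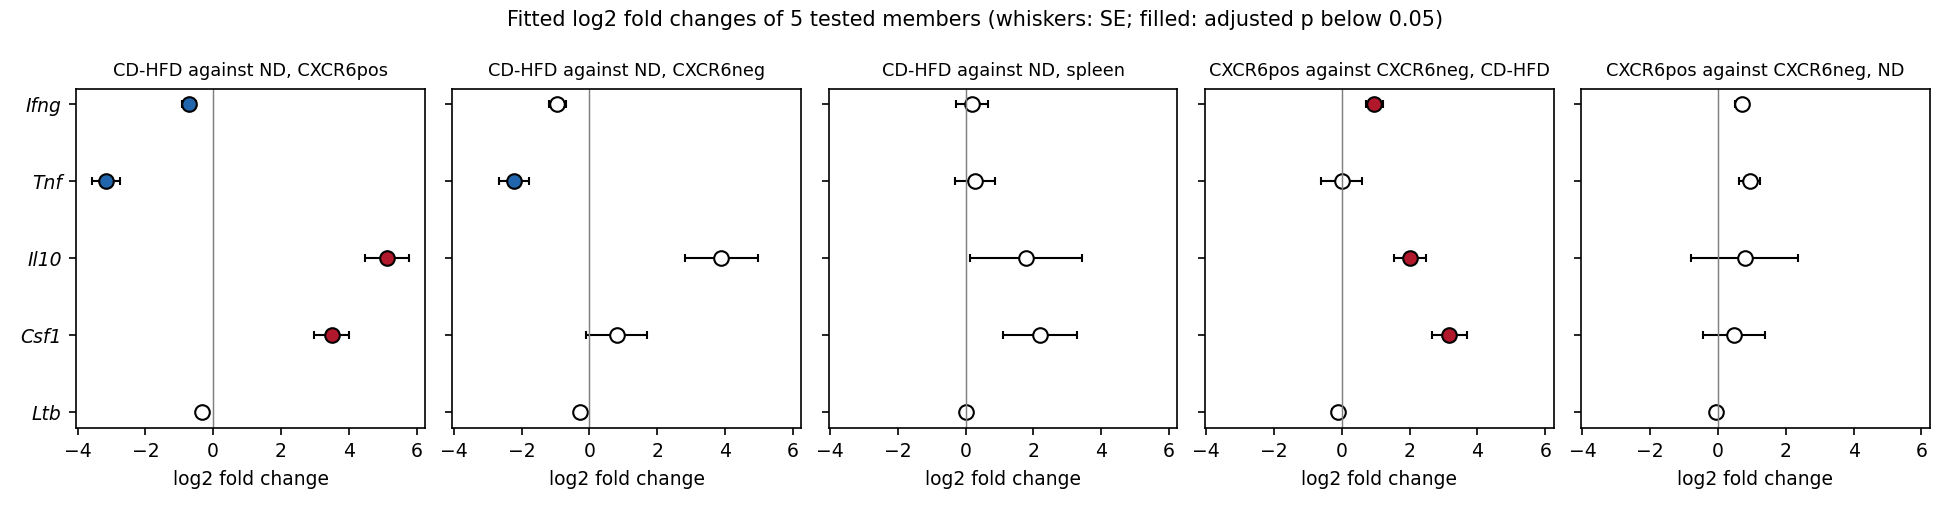
Log2 fold change of the 5 tested cytokine genes in the 3 comparisons of diet and the 2 of CXCR6 fractions, with the SE from the edgeR fit as whiskers; filled points passed an adjusted p of 0.05. In CXCR6pos liver cells Il10 (5.12) and Csf1 (3.49) lie far to the right of 0 for CD-HFD against ND and Tnf (-3.16) far to the left.

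In CXCR6neg liver cells Tnf fell under CD-HFD as well, by 4.69-fold (log2 fold change -2.23 ± 0.44, SE, adjusted p = 0.00703, edgeR). It was the 1 member past the threshold, where 0.47% of all genes passed, and its libraries did not overlap, as 1.04% of genes tested shared as lower genes. Ifng had a log2 fold change of -0.95 ± 0.25 (SE, adjusted p = 0.0745). Il10 had 2 counts in the ND and 44 in the CD-HFD libraries, a ratio of 17.8 with a counting interval of 4.65 to 152 and an adjusted p of 0.105. Csf1 (11 counts against 5, adjusted p = 0.894) and Ltb (adjusted p = 0.653) did not pass, and Tgfb1 had an exact two-sided permutation p of 0.195.

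The calls of this comparison depended on single libraries. Tnf passed under 17 of 22 alternatives. Those in which it missed the threshold included the fits without ND CXCR6neg replicate 4 (adjusted p = 0.0615) or replicate 5 (adjusted p = 0.0587), and with the duplicated library kept in the liver (adjusted p = 0.15). Without both ND libraries farthest against their gate Tnf had an adjusted p of 0.0585. Ifng passed without ND CXCR6neg replicate 2 (adjusted p = 0.00484).

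In spleen cells none of the 5 members tested passed with edgeR, and 1, Csf1, had an unadjusted p below 0.05. DESeq2 called 0 as well, and 0.0324% of all genes passed. Csf1 had 1 count in the ND and 11 in the CD-HFD libraries, a ratio of 7.16 with a counting interval of 1.04 to 308, and 7 of the 11 counts came from 1 library. For Tnf the interval of the log2 difference ran from -0.87 to 1.41 and for Ifng from -0.74 to 1.10. Tgfb1 had an exact two-sided permutation p of 0.530.

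The Tnf change with diet differed between the liver CXCR6pos cells and the spleen. The difference between the 2 changes was -3.44 ± 0.73 on the log2 scale (SE, adjusted p = 0.00477, edgeR), and Tnf was the 1 member of 5 past the threshold, against 3.98% of all genes. Ifng had a difference of changes with an adjusted p of 0.461. For Il10 and Csf1 the spleen counts were too near 0 for the difference of changes to be estimated.

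The next comparison set CXCR6pos against CXCR6neg cells of the liver. Under CD-HFD, Csf1, Il10 and Ifng were higher in CXCR6pos cells. Csf1 was 9.05-fold higher (log2 fold change 3.18 ± 0.52, SE, adjusted p = 1.35e-06, edgeR), Il10 4.04-fold (2.02 ± 0.46, SE, adjusted p = 0.00315) and Ifng 1.94-fold (0.96 ± 0.24, SE, adjusted p = 0.00582). These were 3 of the 5 members tested, where 11.1% of all genes passed. The libraries did not overlap for Csf1 and Ifng, which 2.9% of genes tested shared as higher genes, and overlapped for Il10.

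Tnf had 26.1 CPM in CXCR6pos and 27.4 in CXCR6neg cells, and the interval of the log2 difference, from -1.19 to 1.18, left room for a change in either direction. The Ltb interval ran from -0.42 to 0.17, and Tgfb1 had an exact two-sided permutation p of 0.933. Il10 missed the threshold with DESeq2 (adjusted p = 0.0725) and with only these 2 groups in the fit (adjusted p = 0.0846). Ifng passed under 20 of 22 alternatives. Those in which it missed the threshold included the duplicated library kept in the liver (adjusted p = 0.159).

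Under ND none of the 5 passed with edgeR or with DESeq2, and 0.0324% of all genes did. Ifng (log2 fold change 0.72 ± 0.20, SE, adjusted p = 0.213) and Tnf (0.93 ± 0.30, SE, adjusted p = 0.309) had an unadjusted p below 0.05, each with a higher mean in CXCR6pos cells. CXCR6 RNA overlapped between these ND fractions, as given above. Without ND CXCR6pos replicate 6, which had the lowest Cxcr6 of its fraction, Ifng passed (adjusted p = 0.0197), as it did without that library and ND CXCR6neg replicate 4 (adjusted p = 0.00405).

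The change between the fractions was not shown to differ between the diets for any of the 5 members, with 1.44% of all genes past the threshold. Csf1 was the 1 member with an unadjusted p below 0.05 (2.69 ± 1.24, SE, adjusted p = 0.369, edgeR), and DESeq2 called 0.

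Markers of other cells moved with the fractions, where 11.1% of all genes passed under CD-HFD. The summed level of 7 markers of plasmacytoid dendritic cells was 747 to 1237 CPM in CD-HFD CXCR6neg and 118 to 213 in CD-HFD CXCR6pos libraries, and all 7 were lower in CXCR6pos cells. Siglech, a defining gene of that cell type, had 170 ± 40.2 CPM (SD, n = 6) in CD-HFD CXCR6neg and 2.37 ± 5.29 (SD, n = 5) in CD-HFD CXCR6pos cells. B cell markers summed to 1214 to 1582 CPM in CXCR6neg and 252 to 392 in CXCR6pos under CD-HFD. NK cell markers summed to 505 to 630 CPM in CXCR6neg and 163 to 286 in CXCR6pos under CD-HFD, with 2 of the 4 tested lower and 0 higher in CXCR6pos cells, while 4 of the 6 T cell markers were higher there and 0 lower. The part of any of these markers' cells in the differences between fractions was not tested. In bulk RNA, fewer cells that make a transcript and less of it per cell cannot be told apart.

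CD4 and regulatory T cells can also make Il10, and macrophages respond to CSF1, so the lists of both were read as well. Foxp3 had 1 count and Cd4 1 count over the 5 CD-HFD CXCR6pos libraries. The 5 CD4 and regulatory markers summed to 35.2 to 134 CPM there and to 0 to 56.9 in ND CXCR6pos, with Ikzf2 at 67.0 ± 41.1 CPM (SD, n = 5) and 5.93 ± 5.84 (SD, n = 6). Of these 5 markers 1 was tested. It was higher under CD-HFD in CXCR6pos cells (log2 fold change 2.90), where 11.3% of all genes passed. Adgre1, Clec4f and Csf1r, which define liver macrophages, had 0 counts in the CD-HFD CXCR6pos libraries. The summed list of 6 was 35.6 to 67.2 CPM there and 18.2 to 46.7 in ND CXCR6pos. Cd68 had 39.8 ± 14.1 CPM in CD-HFD CXCR6pos (SD, n = 5). The part of any of these cells in the Il10 and Csf1 changes was not tested.

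**Figure D3:**
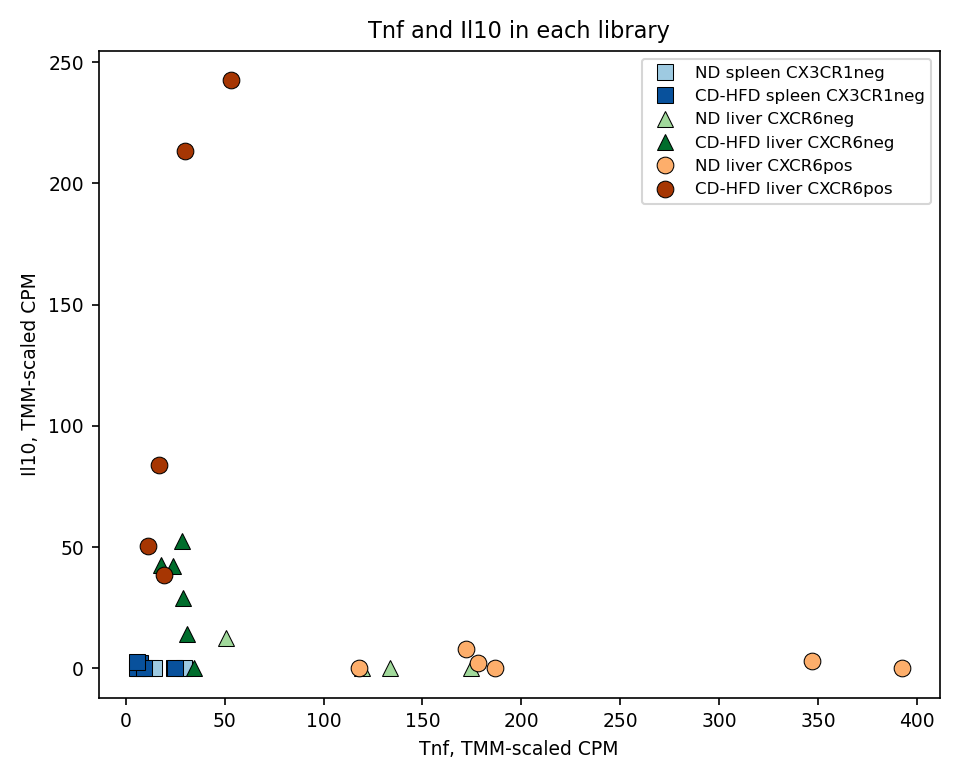
Tnf (horizontal axis) and Il10 (vertical axis) in each library, both in TMM-scaled CPM, coloured by group. CD-HFD CXCR6pos libraries lie along the vertical axis with Tnf at 11.2 to 53.2 CPM, and ND liver libraries along the horizontal axis with Il10 at no more than 12.6 CPM.

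Set side by side, Tnf and Il10 changed places between the diets in CXCR6pos liver cells, and only in part in CXCR6neg cells. All 5 CD-HFD CXCR6pos libraries had more Il10 than Tnf counts (145 against 29 in sum), and 3 of 6 CD-HFD CXCR6neg libraries did (44 against 37). In the ND liver and in both spleen groups 0 libraries did, with sums of 6 Il10 to 422 Tnf counts in ND CXCR6pos and 2 to 145 in ND CXCR6neg. This is a description of libraries already tested gene by gene above.

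The liver cells were richer in Ifng than the CX3CR1neg spleen cells under both diets. The labels name no CX3CR1 gate for the liver cells, so organ and gate cannot be told apart in any comparison of liver with spleen. Ifng was 25.5-fold higher in CXCR6pos liver cells than in spleen under ND (log2 fold change 4.67 ± 0.29, SE, adjusted p = 2.95e-16, edgeR) and 13.8-fold under CD-HFD (3.79 ± 0.29, SE, adjusted p = 1.52e-13). In CXCR6neg cells it was 15.5-fold higher under ND (3.96 ± 0.33, SE, adjusted p = 3.91e-12) and 7.13-fold under CD-HFD (2.83 ± 0.32, SE, adjusted p = 7.18e-09). The liver and spleen libraries did not overlap for Ifng in any of the 4 comparisons, which share the spleen groups. Of all genes tested, 2.51% were higher without overlap in CXCR6pos cells under ND and 6.46% under CD-HFD, and in CXCR6neg cells 5.39% and 3.19%.

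Tnf was higher in the liver than in the spleen under ND, by 19.6-fold in CXCR6pos (4.29 ± 0.39, SE, adjusted p = 1.57e-09, edgeR) and 10.3-fold in CXCR6neg cells (3.36 ± 0.46, SE, adjusted p = 5.37e-06). Under CD-HFD neither fraction passed (adjusted p = 0.332 and 0.384), with intervals of the log2 difference from -0.30 to 2.01 and from -0.20 to 1.93. Il10 passed under CD-HFD in CXCR6pos (145 counts against 3, ratio 149.0, counting interval 49.97 to 731, adjusted p = 3.57e-09) and CXCR6neg cells (44 against 3, ratio 35.6, interval 11.4 to 179, adjusted p = 0.000246). Under ND, CXCR6pos cells had 6 Il10 counts and the spleen 0. The ratio was 2.48 with 3 counts over the spleen group as the floor, without the counting error of the 6. The interval of the log2 difference, from -0.06 to 6.76, included 0 (adjusted p = 0.233, edgeR).

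Csf1 was 19.9-fold higher in CXCR6pos cells than in spleen under CD-HFD (4.31 ± 0.49, SE, adjusted p = 2.04e-12, edgeR). Under ND it passed narrowly (11 counts against 1, ratio 13.7, counting interval 1.99 to 588.0, adjusted p = 0.0482). That call was lost under 14 of 22 alternatives. These were 8 of the 11 fits without 1 library, with an adjusted p of up to 0.153 without ND CXCR6pos replicate 5, DESeq2 (adjusted p = 0.0617), only these 2 groups in the fit (0.0564), no libraries of low depth (0.0761), and the duplicated library kept in the liver (0.0525), in the spleen (0.107) or in both (0.114). Ltb was the 1 member lower in the liver, 1.38-fold in CD-HFD CXCR6pos cells (-0.46 ± 0.14, SE, adjusted p = 0.0091), a call lost without CD-HFD CXCR6pos replicate 2 (adjusted p = 0.0862).

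In these comparisons 4 of 5 members passed in CXCR6pos cells under CD-HFD, against 25.7% of all genes, and 3 of 5 under ND, against 14.4%. In CXCR6neg cells 2 of 5 passed under CD-HFD, against 10.4%, and 2 of 5 under ND, against 6.87%. For Tgfb1 the exact two-sided permutation p lay between 0.556 and 0.987 in the 4 comparisons. B cell markers, which also express Ltb, summed to 2007 to 3896 CPM in the spleen libraries and to 236 to 1686 in the liver libraries, and their part in the Ltb difference was not tested.

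Immediate-early genes were also higher in liver than in CX3CR1neg spleen cells. Fos had 15.3 ± 8.17 CPM (SD, n = 5) in ND spleen and 556 ± 162 (SD, n = 6) in ND CXCR6pos cells, and Jun 19.8 ± 4.80 and 649 ± 219 CPM in the same libraries. Junb, another AP-1 subunit, was higher in CXCR6pos cells than in spleen by 4.12 ± 0.12 on the log2 scale under ND (SE, adjusted p = 8.76e-52, edgeR). The part of these genes in the liver and spleen differences of the cytokines was not tested.

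Of the 33 regulators of cytokine genes listed, 28 were tested. Under CD-HFD in CXCR6pos cells 8 were higher and 5 lower, where 11.3% of all genes passed, with a median log2 fold change of 0.20 against 0.00 over all genes. Maf, a transcription factor known to drive Il10 in T cells, rose from 13.4 ± 8.12 (SD, n = 6) to 239 ± 123 CPM (SD, n = 5), a log2 fold change of 3.996 ± 0.45 (SE, adjusted p = 1.98e-07, edgeR). Batf, an AP-1 family factor, rose from 80.1 ± 33.3 to 325 ± 77.6 CPM in the same groups (1.97 ± 0.18, SE, adjusted p = 1.08e-14), and Prdm1, which encodes BLIMP1, by 2.06 ± 0.31 (SE, adjusted p = 1.78e-07). Bhlhe40, a further transcription factor gene of the list, rose from 297 ± 106 to 799.9 ± 117 CPM (1.31 ± 0.13, SE, adjusted p = 1.39e-13).

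The regulators that fell in these cells included AP-1 genes and RNA-decay genes. Zfp36, whose product binds AU-rich elements such as those of Tnf printed above, fell from 370.4 ± 125 to 177 ± 9.73 CPM (-1.20 ± 0.14, SE, adjusted p = 6.75e-12, edgeR). Fos fell by 1.76 ± 0.20 and Jun by 1.70 ± 0.21 on the log2 scale. Tbx21, the T-bet gene and an activator of Ifng, fell by 0.82 ± 0.16 (SE, adjusted p = 9.7e-05), while the related Eomes rose by 1.42 ± 0.26. Maf, Jun, Tbx21 and Eomes were singled out after their values were seen, as were Maf, Batf and Rel in the comparison of the fractions given further on.

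In CXCR6neg cells 2 regulators rose and 2 fell under CD-HFD, where 0.47% of all genes passed, with a median of 0.18. Batf rose from 73.7 ± 22.2 (SD, n = 4) to 190.0 ± 39.3 CPM (SD, n = 6, adjusted p = 4.56e-05, edgeR) and Maf from 12.7 ± 6.58 to 80.8 ± 22.7 CPM (adjusted p = 0.0273). Zfp36 (-0.57 ± 0.13, SE, adjusted p = 0.00571) and Jun (-0.91 ± 0.19, SE, adjusted p = 0.012) were the ones that fell. None of the 28 passed in the spleen, where 0.0324% of all genes did.

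**Figure D4:**
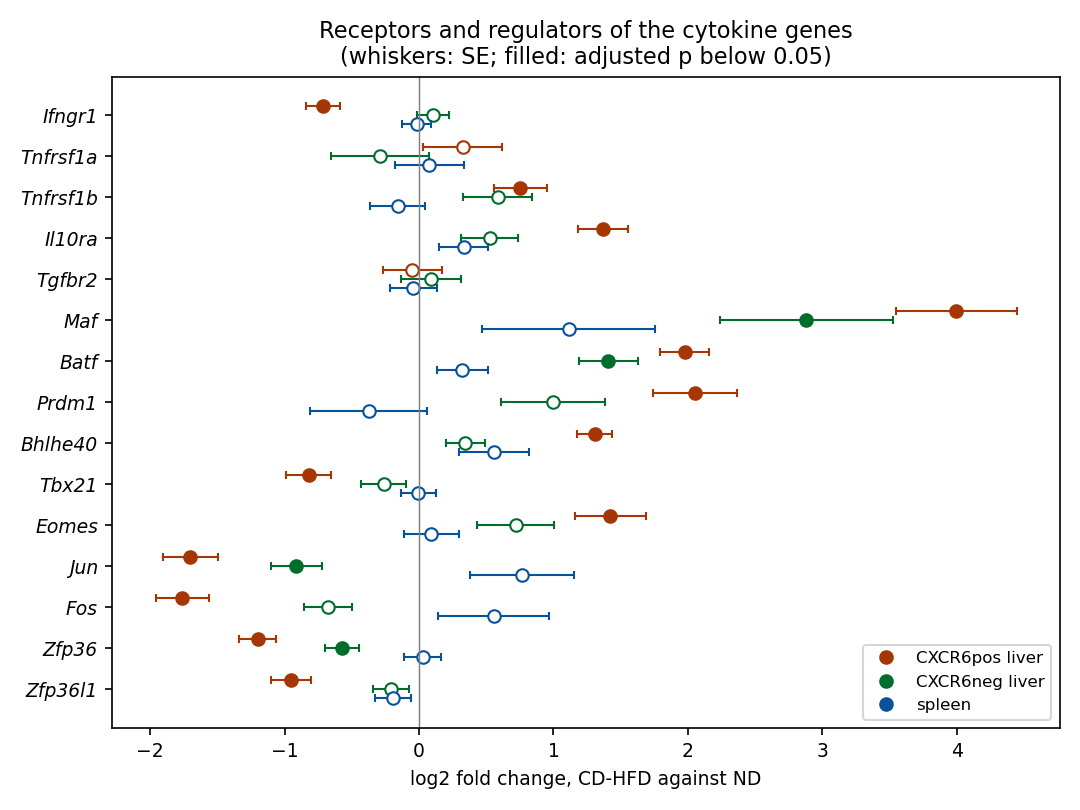
Log2 fold change under CD-HFD against ND of named regulators and receptors in the 3 cell fractions, with the SE as whiskers; filled points passed an adjusted p of 0.05. Maf (3.996) and Batf (1.97) lie to the right of 0 in CXCR6pos cells, and Zfp36 (-1.20), Fos (-1.76) and Jun (-1.70) to the left.

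Between the fractions under CD-HFD 6 regulators were higher and 6 lower in CXCR6pos cells (median -0.05), where 11.1% of all genes passed. Maf (1.56 ± 0.34, SE, adjusted p = 0.00224, edgeR), Batf (0.78 ± 0.16, SE) and Bhlhe40 (1.07 ± 0.13, SE) were among the higher ones. Zfp36 (-0.83 ± 0.14, SE), Fos (-1.17 ± 0.21, SE) and Rel (-1.03 ± 0.34, SE), an NF-kB subunit, were among the lower ones. Under ND none of the 28 passed, where 0.0324% of all genes did. Against the spleen under CD-HFD, 15 regulators were higher and none lower in CXCR6neg cells, against 10.4% of all genes, and 14 higher and 3 lower in CXCR6pos cells, against 25.7%. Under ND the numbers were 9 and 0 in CXCR6neg (6.87% of all genes) and 10 and 1 in CXCR6pos cells (14.4%).

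Receptor genes for the members' products changed in both directions. Of 12 listed, 6 were tested, and under CD-HFD in CXCR6pos cells 2 rose and 1 fell (median 0.14), against 11.3% of all genes in either direction. Il10ra, the ligand-binding chain of the interleukin 10 receptor, rose from 89.0 ± 11.5 (SD, n = 6) to 228 ± 25.5 CPM (SD, n = 5), by 1.37 ± 0.19 (SE, adjusted p = 4.41e-09, edgeR). Ifngr1, the ligand-binding chain of the interferon gamma receptor, fell from 529.8 ± 139 to 343 ± 45.2 CPM (-0.71 ± 0.12, SE, adjusted p = 4.79e-06). Tnfrsf1b, which encodes TNF receptor 2, rose from 99.9 ± 34.9 to 144 ± 59.4 CPM (0.75 ± 0.20, SE, adjusted p = 0.00371).

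The Ifngr1 change with diet in CXCR6pos cells differed from that in CXCR6neg cells (-0.82 ± 0.17, SE, adjusted p = 0.00202, edgeR) and from that in the spleen (-0.70 ± 0.17, SE, adjusted p = 0.00372). The Il10ra change differed from that in the spleen (1.04 ± 0.26, SE, adjusted p = 0.00754) and was not shown to differ from that in CXCR6neg cells (adjusted p = 0.131). Between the fractions under CD-HFD, where 11.1% of all genes passed, 3 receptor genes were higher in CXCR6pos cells (Tnfrsf1b, Il10ra and Tnfrsf1a). Ifngr1 was the 1 lower there, at 343 against 618 CPM. In CXCR6neg cells and in the spleen none of the 6 passed for diet, where 0.47% and 0.0324% of all genes did.

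Genes downstream of the members were counted from their lists, beside the 11.3% of all genes that passed for diet in CXCR6pos cells and the 11.1% that passed between the fractions under CD-HFD. A count of 1 or 2 in these lists is near that share and is no result about the list. Of 12 tested genes of interferon gamma signalling, 0 rose and 2 fell under CD-HFD in CXCR6pos cells (median -0.38), among them the GTPase gene Ifi47 (-0.46 ± 0.13, SE). Between the fractions under CD-HFD 5 of the 12 were lower and 0 higher (median -0.34). Of 12 tested genes of TNF and NF-kB signalling, 1 rose and 2 fell with diet in CXCR6pos cells (median 0.09), and the inhibitor gene Nfkbia fell by 0.75 ± 0.13. Of 7 tested genes that process or relay TGF-beta, 1 rose, the SMAD co-repressor Skil (1.24 ± 0.30, SE, adjusted p = 0.00179, edgeR).

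Most other cytokine genes were near the limit of these counts. Of 46 listed, 34 had a row in the table and 9 were tested. In CXCR6pos cells 2 rose and 3 fell under CD-HFD (median 0.10), against 11.3% of all genes. Penk, the enkephalin precursor gene, rose from 14.8 ± 15.9 (SD, n = 6) to 174.6 ± 109 CPM (SD, n = 5, log2 fold change 4.24 ± 0.52, SE, adjusted p = 8.37e-07, edgeR), and Spp1, the osteopontin gene, from 7.13 ± 9.81 to 127.6 ± 135 CPM (3.60 ± 0.86, SE, adjusted p = 0.00477). Only 3 of the 5 CD-HFD libraries had Spp1 counts, and 99 of the 150 came from 1 library.

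The other cytokine genes that fell were TNF superfamily ligands and a growth factor. Tnfsf14 (LIGHT) fell from 54.7 ± 25.6 to 15.1 ± 6.03 CPM, Tnfsf8 (CD30 ligand) from 35.2 ± 23.5 to 10.1 ± 7.35 and Flt3l, which supports dendritic cells, from 131 ± 42.3 to 87.0 ± 29.8. In CXCR6neg cells 1 of the 9 passed, where 0.47% of all genes did. It was Penk, at 117 ± 52.8 CPM under CD-HFD (SD, n = 6) and 10.3 ± 5.32 under ND (SD, n = 4). None passed in the spleen, where 0.0324% of all genes did. Lta, the partner of Ltb, was not tested, with 105 counts in all libraries and 8.11 to 12.2 CPM in the group means, and Il2 had 31 counts in ND CXCR6pos and 0 in CD-HFD CXCR6pos libraries.

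Between the fractions under CD-HFD, Fasl (0.67 ± 0.14, SE) and Tnfsf10 (1.48 ± 0.43, SE), both ligands of death receptors, were higher and Tnfsf8 (-1.54 ± 0.44, SE) lower in CXCR6pos cells. Csf1r, the receptor of CSF1, had 0 counts in CD-HFD CXCR6pos, CD-HFD CXCR6neg and ND CXCR6neg libraries and 3 in ND CXCR6pos libraries. The spleen had 15 counts of Csf1r under CD-HFD and 6 under ND.

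For each tested member, the genes with the most similar pattern over the 32 libraries were named by Pearson's r of log2 CPM, as a description. These libraries share their groups and depth, so r was also taken after group means were removed. Ifng was most like Klf6 (r = 0.957, and 0.712 without group means) and Ccl3 (0.941 and 0.705). Tnf was most like Cx3cr1 (0.86 and 0.531), Hspa1a (0.807 and 0.107) and Nfkbid. The spleen cells were sorted as CX3CR1neg, which bears on the r of 0.86 with Cx3cr1. Il10 was most like Ctla4 (0.868 and 0.405), Maf (0.867 and 0.38) and Batf (0.866 and 0.356).

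The likeness of Il10 to its nearest genes was much lower once group means were removed. Csf1 was most like Arl6ip1 (r = 0.856, and 0.513 without group means), Tcrg-C4, which has near-identical copies, and Gimap7. Ltb was most like Arl4c (0.885 and 0.90) and Rps27rt (0.876 and 0.859). The values without group means rest in part on ND CXCR6pos replicate 1, the shallowest library, with 2 Ltb counts and 1 Ifng count. Over the 31 other libraries, a choice made after seeing the data, they were 0.547 for Arl4c and 0.243 for Rps27rt with Ltb, and 0.364 for Klf6 and 0.547 for Ccl3 with Ifng.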

How the data were processed

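Polyadenylated RNA of cells sorted into lysis buffer was sequenced from its 3′ end, per the labels' protocols. The authors deposited whole-number counts per gene symbol for 22865 genes, not normalized. GRCm38.p6 is the build and DESeq2 1.14.1 a tool named in the authors' work, per the submitters' processing notes. For the aligner, counter, annotation, use of strand and collapsing of unique molecular identifiers, the sources used here give nothing.

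The labels name 35 samples in 6 groups, of which 34 matched a column. A further 1 column fitted no sample name and was not used, and CD-HFD CXCR6pos replicate 6 was not analysed here. ND CXCR6neg replicate 1 and ND spleen replicate 6 held identical counts and were left out, which left 32 libraries.

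Genes were filtered with filterByExpr, which kept 6174 genes and 5 of the 6 members (not Tgfb1), scaled by TMM, and compared in R 4.3.3 with edgeR 4.0.16 (quasi-likelihood test). All 6 groups entered 1 fit without a block, with the Benjamini-Hochberg adjustment over all tested genes and a threshold of 0.05. Standard errors of log2 fold changes were derived from F (size over root F). The scripts were tested on simulated data. Tgfb1 was tested by exact permutation of CPM over libraries in 9 comparisons. With 1 to 3 counts in a group, the ratio of counts is given with its exact 95% interval, and with 0 a floor of 3 counts, both for counting error only. Alternatives included DESeq2 1.42.0, other scaling and filters, a replicate block and leaving out libraries.

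All 6 members are named, with up to 5 genes per list and comparison by the smallest p past the threshold, and up to 3 genes of highest r with each tested member; 1 such gene is not reported here. Il2, Lta, Csf1r and the regulators so marked in the text were named after their values were seen. The members and lists were chosen with earlier results of these data known. UTR windows came from GENCODE M21 and start regions from RefSeq. Protein sequences were not used here.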

Additional observations from a re-analysis of the deposited data

Results flagged for a closer look

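Of 36 sets of libraries, 6 genes in 6 groups, 7 held a library far from the others of its group. The rule flags about 1 in 20 sets of normally distributed values. That rate does not hold for counts near 0, where a set with 1 library above 0 is always flagged. Whether 7 exceeds chance was therefore not tested. Most of the flagged values rest on few counts. Il10 was 8.20 CPM (4 counts) in ND CXCR6pos replicate 5, against 0 to 3.04 in the others, and 12.6 CPM (2 counts) in ND CXCR6neg replicate 2, against 0. Csf1 was 46.7 CPM (1 count) in ND CXCR6pos replicate 1, against 0 to 11.2, and 2.48 CPM (1 count) in ND spleen replicate 1, against 0. Csf1 was also 19.9 CPM (7 counts) in CD-HFD spleen replicate 6, where the other libraries had 0 to 4.60 CPM. Ltb was 93.3 CPM (2 counts) in ND CXCR6pos replicate 1, against 379 to 502, and Tgfb1 33.6 CPM (2 counts) in CD-HFD CXCR6pos replicate 5, against 5.60 to 8.20.

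The change of Tnf with diet differed between CXCR6pos liver cells and spleen cells, by -3.44 on the log2 scale (adjusted p = 0.00477, edgeR): Tnf was 8.97-fold lower under CD-HFD in the former and had 12.9 and 13.9 CPM under CD-HFD and ND in the latter.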

How the results depend on the processing

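The number of members past the threshold stayed within 1.5 times its value under every alternative in 9 of 11 comparisons. For CD-HFD against ND in CXCR6neg cells, where 1 member passed, 3 passed with no filter on low counts, 3 with only the groups of the comparison in the fit and 2 without the libraries of low depth. Leaving out 1 library at a time gave 0 to 2, and leaving out the 2 ND liver libraries against their gate, an alternative chosen after seeing the data, gave 0. For CXCR6pos against CXCR6neg cells under ND, where 0 passed, 2 passed with no filter, 1 without those 2 libraries, and 0 to 1 without 1 library at a time. The cause was not tested. With the replicate number as a block, 3 members passed in the first of these comparisons and 2 in the second. In the first, the block joined same-numbered libraries of both diets, which no label pairs. In the second, it was the replicate number within each diet. With group means removed, 0 of 29 same-numbered pairs within a diet correlated above 0.1 (median r 0.0111). Of the 141 other pairs within a diet 1 did (median r -0.00015). Correlations this small cannot decide whether the numbers pair the samples. Of members' differences that passed or lay beyond 2 SE, 28 alternative values lost the threshold, 20 gained it and none changed sign; some smaller ones did, such as Tnf between the CD-HFD fractions (8 of 22 alternatives). Over all genes, the ND comparison of the fractions called 2 genes, 67 with the block, 18 with no filter, 12 with DESeq2 and 92 without those 2 libraries, the CXCR6neg diet comparison called 29, 59 with only its groups, 55 with the duplicated library kept in the liver and 8 without those 2 libraries, the spleen diet comparison 2 and 8 with no filter, and CXCR6neg against spleen under ND 424 and 208 with the duplicated library kept in both groups. Il10, Csf1 and Tgfb1 rest on 123 to 200 counts in all.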
